A study of Mus musculus with 6 samples.

Results

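Probes for the axon guidance ligands and receptors were followed in the prefrontal cortex of BTBR T+ Itpr3tf/J mice and of C57BL/6J mice. They were chosen by gene name: every non-control probe named for a semaphorin of classes 3 to 7, a plexin, a neuropilin, a netrin or netrin-G, Dcc, an Unc5 receptor, a Slit, a Robo, an ephrin or an Eph receptor. That gave 136 probes with 74 gene names, of 41174 probes with 27373 names on the array. The name prefixes also took in Unc50, Unc5cl and Plxna4os2, which are not guidance ligands or receptors, so the families themselves hold 133 probes of 71 genes.

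The BTBR group was 3 male mice of the inbred strain BTBR T+ Itpr3tf/J, which carries the tufted allele of Itpr3 and lacks a corpus callosum. The C57BL/6J group was 3 male wild-type mice of the common inbred strain. All 6 mice were 5 months old and received no drug, and RNA of the whole prefrontal cortex of each was hybridised to an Agilent single-colour array. The labels give C57BL/6J as the strain background of the BTBR samples too, while their titles and genotype give BTBR. Inbred strains differ at many loci across the genome, so a difference between them cannot be tied to 1 allele.

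Axon guidance ligands steer growing axons by attraction or repulsion. Class 3 semaphorins are secreted and act through neuropilins, which bind them, and plexins, which signal. Netrins act through Dcc and Unc5 receptors, Slits through Robos, and ephrins, which stay on the membrane, through Eph receptor tyrosine kinases. Several of these genes are needed in the mouse embryo for axons to cross the midline in the corpus callosum, and in the adult cortex many members are still made and act at synapses, in glia and in vessels.

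Levels are log2 signals relative to the 75th percentile of the array, so 0 is that percentile, and each probe is compared only with itself between mice. All 9 markers of cortical excitatory neurons were well above background on all 6 arrays. Between 68.2% and 74.5% of probes were well above background per array, no probe was saturated, and precision is limited by there being 3 arrays per strain. Arrays lay on 2 slides, with mice 1 and 2 of each strain on the first and mouse 3 of each on the second. Before scaling, the 75th percentile of signal was 919, 859 and 1184 in BTBR mice 1, 2 and 3. In C57BL/6J mice 1, 2 and 3 it was 1607, 1243 and 1209, so all BTBR arrays were dimmer, most of all on the first slide. The part of this brightness in the strain differences of dim probes was not tested. Marker lists were scored per mouse by taking each gene's log2 deviation from its 6-mouse mean and then the median over the list. For 9 striatal neuron markers the score was -0.99, 0.46 and -1.39 in BTBR mice 1, 2 and 3, against -0.79, -0.19 and 2.46 in C57BL/6J mice 1, 2 and 3, so C57BL/6J 3 stood apart. Choroid plexus markers scored highest in C57BL/6J 1 (3.05), and olfactory bulb and neuroblast markers in BTBR 2 (2.18). Drd1, the tenth striatal marker, did not pass the filter on dim probes.

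Of the guidance probes, 120 with 72 names were well above background on at least 3 arrays and were tested. With limma and Benjamini-Hochberg adjustment over all 30011 tested probes, 6 of the 120 (5%) passed an adjusted p of 0.05, against 5.44% of all tested probes. Ntn4 and Sema3d were higher in BTBR, and Nrp1 (1 of its 3 probes), Sema3a, Epha8 and Plxnb3 were lower. The background was 2.19% of all tested probes for calls higher in BTBR and 3.25% for calls lower. The share of guidance probes that passed was thus close to that of the whole array.

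The median log2 difference, BTBR minus C57BL/6J, was 0.04 over the guidance probes and 0.04 over all tested probes. The mean was higher in BTBR for 63 guidance probes and lower for 57. Over all tested probes it was higher for 17152 and lower for 12859, so the signs were not evenly split there either. In 95 of the 120 the difference lay within 0.5 on the log2 scale in either direction, and in 4 it reached 2-fold. Values of the BTBR and C57BL/6J mice did not overlap for 27 guidance probes, of which 12 were higher and 15 lower in BTBR; over all tested probes the strains did not overlap in 22.8%. The unadjusted p was under 0.05 for 24 guidance probes (20%), against 16.8% of all tested probes. The 95% confidence interval of a guidance probe reached, in the median, 0.53 to either side of its log2 difference, against 0.38 for all tested probes, so differences of that size could often not be told from 0 here. With 1 mouse left out, Ntn4 and Sema3d passed in all 6 cases. They were the only guidance probes to pass without C57BL/6J 1 or C57BL/6J 2, Nrp1 passed as well without C57BL/6J 3 or BTBR 1, Sema3c and Sema6c without BTBR 2, and Epha8 and Sema3c without BTBR 3.

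**Figure D1:**
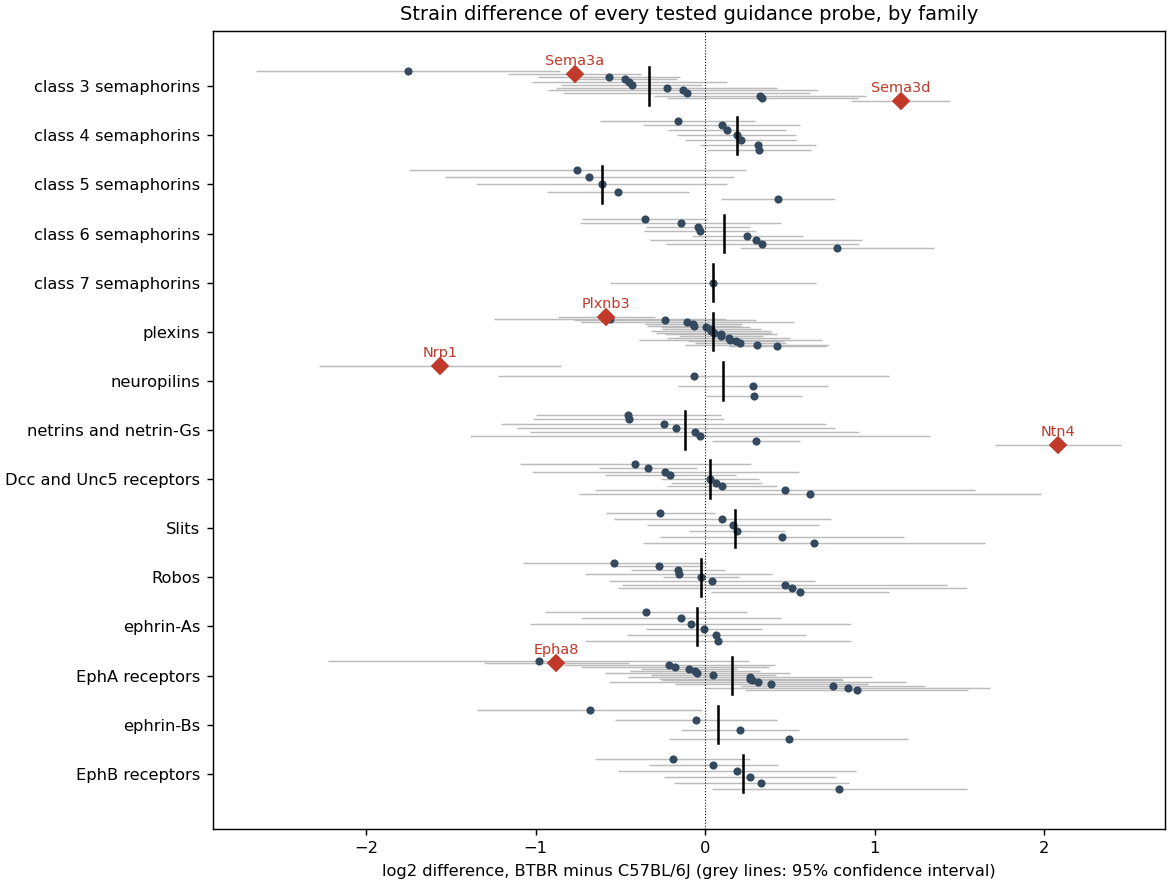
The log2 difference (BTBR minus C57BL/6J) of each tested guidance probe is plotted on the horizontal axis, by family, with its 95% confidence interval as a grey line; red diamonds are the 6 probes past the test and black bars the family medians. Most points lie near 0 on both sides, while Ntn4 (2.08) and Sema3d (1.15) stand to the right and Nrp1 (-1.57) and an unlabelled Sema3c point (-1.75) to the left.

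Among the netrins, Ntn4 gave the largest difference of any guidance probe. Netrin-4 is a secreted netrin of basement membranes that binds laminins. Its probe lies at chr10:93208482-93208540 (mm9, plus strand), and its 60 bases are shown because the strain difference of the gene rests on this probe alone, with no letter in capitals. The interval given in the files spans 59 bases, 1 fewer than the probe, so the 2 do not match exactly.
Ntn4 A_51_P497661: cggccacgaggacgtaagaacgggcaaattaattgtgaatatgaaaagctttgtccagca

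Ntn4 levels were -3.65, -3.17 and -3.33 in BTBR mice 1, 2 and 3, against -5.55, -5.52 and -5.32 in C57BL/6J mice 1, 2 and 3. The 3 BTBR values all lay above the 3 C57BL/6J values, and the gap was far wider than the spread within either strain. The probe was 4.23-fold higher in BTBR (log2 difference 2.08 ± 0.16 SE, limma adjusted p = 0.000813), with 2.13 within slide 1 and 1.99 within slide 2. Of 21 alternative settings with a test, 20 kept the call. With normexp background correction, run with an offset of 50 added to the signal, the difference was 0.55 (limma adjusted p = 0.962). Markers of endothelium (5 of 5 tested) had a median difference of 0.07 with none past the test, and those of meningeal fibroblasts (5 of 5) one of -0.29, with none past it.

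No other netrin or netrin-G probe passed, though Ntn3 did on the authors' matrix values and with array weights. Ntn1, the netrin that attracts commissural axons through Dcc, had a log2 difference of -0.45 ± 0.23 SE (limma adjusted p = 0.417). Ntn3 had 0.30 (adjusted p = 0.228) with no overlap between strains, and Ntn5 had -0.03. Ntng2, a membrane-anchored netrin-G, had -0.45 (adjusted p = 0.4). The 3 tested probes of Ntng1, a netrin-G of thalamic and cortical axons, gave -0.25, -0.17 and -0.06. The family median was -0.12 over 8 tested probes.

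The class 3 semaphorins held both a call higher and a call lower in BTBR, in 12 tested probes of 7 genes. Sema3d, a secreted semaphorin that repels axons and binds neuropilins, had levels of -4.32, -4.15 and -4.48 in BTBR mice 1, 2 and 3, against -5.47, -5.40 and -5.53 in C57BL/6J mice. The strains did not overlap, and the range within each (0.32 in BTBR, 0.13 in C57BL/6J) was smaller than the gap. Sema3d was 2.22-fold higher in BTBR (log2 difference 1.15 ± 0.12 SE, limma adjusted p = 0.00324), with 1.20 within slide 1 and 1.06 within slide 2. The call held in 19 of 21 alternative settings and was lost with normexp background correction (0.06, adjusted p = 0.983) and on the authors' matrix values (0.19, adjusted p = 0.0517).

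Sema3a, the prototype repellent semaphorin, gave levels on its called probe of -2.28, -1.94 and -1.83 in BTBR mice 1, 2 and 3, against -1.03, -1.39 and -1.31 in C57BL/6J mice. All BTBR values lay below all C57BL/6J values. The probe was 1.71-fold lower in BTBR (log2 difference -0.77 ± 0.16 SE, limma adjusted p = 0.0491), with -0.89 within slide 1 (adjusted p = 0.0719) and -0.52 within slide 2. The second tested Sema3a probe had levels of -4.66, -4.31 and -4.11 in BTBR mice, against -3.93, -4.09 and -3.76 in C57BL/6J mice. It too did not overlap between strains but missed the test (-0.43 ± 0.17 SE, adjusted p = 0.279). The call on Sema3a sits at the threshold: it held in 6 of 21 alternative settings and was lost with slide as a block (adjusted p = 0.0748) and whichever mouse was left out, with adjusted p between 0.0585 and 0.164.

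Sema3c lay just outside the threshold. This semaphorin binds both neuropilins and is known in mouse as an attractant of callosal axons. Levels on its upstream probe were -5.67, -5.34 and -6.73 in BTBR mice 1, 2 and 3, against -4.19, -3.82 and -4.48 in C57BL/6J mice. The strains did not overlap, and the BTBR signal was well above background on 2 of 3 arrays. Its log2 difference was -1.75 ± 0.37 SE (limma adjusted p = 0.0501), which passed in 10 of 19 alternative settings, among them slide as a block (adjusted p = 0.0118). Within slide 1 it was -1.50 (adjusted p = 0.0217) and within slide 2 -2.25. Keeping only probes well above background on all arrays, or the brightest probe per gene, left this probe untested. The downstream probe, 151 kb further along the strand and on a RefSeq transcript, showed -3.92, -3.29 and -3.76 in BTBR mice, against -3.43, -3.07 and -4.14 in C57BL/6J mice. These values overlapped (-0.11 ± 0.30 SE, adjusted p = 0.918), so the gene's 2 probes did not give the same difference.

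The last 30 bases of the probes behind these semaphorin values are given so that the targets can be told apart, since the upstream Sema3c probe sits on a transcript without a RefSeq match here.
Sema3d A_52_P649623 (chr5:12586136-12586195, mm9, plus strand): ctttccactggagtataaatatctgccaac
Sema3a A_52_P527748 (chr5:13602253-13602312, mm9, plus strand): aagtttctatagatgctccattccagtttg
Sema3c upstream A_52_P65351 (chr5:17083479-17083538, mm9, plus strand): ttagtaatgtaacccttattaacttggcag
Sema3c downstream A_52_P87839 (chr5:17234078-17234137, mm9, plus strand): aagtgatgagttcatatgcttccagtgatt

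Sema3d, Sema3a, Sema3e and Sema3c lie along chr5:12586136-17234137 (mm9). Of 42 probes on the array in that interval, 23 were tested and 2 passed, the called Sema3d probe, higher in BTBR, and the called Sema3a probe, lower. None of the 15 tested probes of other genes there passed at an adjusted p of 0.05, a count too small to set apart from the 5.44% of all tested probes. Sema3e, which signals through plexin-D1 without a neuropilin, had differences of 0.34, -0.45 and -0.57 on its 3 tested probes; the last, with no overlap between strains, had an adjusted p of 0.155. Sema3g, an endothelial semaphorin, had -0.47 ± 0.13 SE (adjusted p = 0.104) and also did not overlap; it passed on the authors' matrix values and with array weights. Sema3b had 0.32, and the pair of Sema3f probes, for a ligand of neuropilin-2, -0.13 and -0.23. The median of the 12 class 3 probes was -0.33, with 9 means lower in BTBR and 3 higher, and over 22 alternatives it ranged from -0.46 to -0.10.

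No probe of the membrane-bound and other semaphorins passed. In class 4, which signals mainly through B-type plexins, 6 of 7 probes had a higher mean in BTBR, with a median of 0.18. The smallest p there was that of Sema4c, a plexin-B2 ligand. Its levels on that probe were -1.90, -2.18 and -1.92 in BTBR mice 1, 2 and 3, against -2.45, -2.23 and -2.27 in C57BL/6J mice, a log2 difference of 0.32 ± 0.13 SE (limma adjusted p = 0.283). The strains did not overlap, but BTBR 2 and C57BL/6J 2 lay close together.

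Sema5a and Sema5b are transmembrane semaphorins with thrombospondin repeats. The 2 Sema5a probes gave opposite differences: levels of -4.76, -5.15 and -5.13 in BTBR mice, against -5.50, -5.36 and -5.47 in C57BL/6J mice, for the first (0.43 ± 0.14 SE, adjusted p = 0.181), and 0.31, 0.18 and -0.20 in BTBR mice, against 0.65, 0.78 and 0.40 in C57BL/6J mice, for the second (-0.51 ± 0.17 SE, adjusted p = 0.2). Neither overlapped between strains and neither passed. The 3 Sema5b probes gave -0.61, -0.75 and -0.69, with C57BL/6J 3 the highest of the 6 mice on each; its striatal score was also the highest, and the part of striatal tissue in these values was not tested.

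In class 6, the transmembrane partners of A-type plexins, Sema6c had levels of -1.69, -2.47 and -1.59 in BTBR mice, against -2.69, -2.65 and -2.74 in C57BL/6J mice. The BTBR values were all higher, but BTBR 2 lay close to the C57BL/6J values (log2 difference 0.78 ± 0.24 SE, adjusted p = 0.152). Without BTBR 2 the probe passed, at 1.05 (adjusted p = 0.0107). The second Sema6c probe had 0.30, Sema6a -0.36 and -0.15, Sema6b -0.03 and the 3 Sema6d probes between -0.04 and 0.34. Sema7a, which is anchored to the membrane by a lipid and binds plexin-C1 and integrins, had 0.05 ± 0.25 SE (adjusted p = 0.959).

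Nrp1 was the receptor gene with the largest difference, and its probes disagreed. Neuropilin-1 is the co-receptor that holds Sema3a and is needed for callosal axons to cross in mouse. The clone probe of Nrp1, placed on a RIKEN thymus clone with no RefSeq match here, had levels of -5.45, -6.29 and -6.21 in BTBR mice 1, 2 and 3, against -4.08, -4.29 and -4.88 in C57BL/6J mice. The strains did not overlap, and 2 of 3 BTBR arrays were well above background. The probe was 2.96-fold lower in BTBR (log2 difference -1.57 ± 0.30 SE, limma adjusted p = 0.0338), with -1.68 within slide 1 and -1.33 within slide 2. It passed in 10 of 19 alternative settings. Keeping only probes well above background on all arrays, or the brightest probe per gene, left it untested. Without C57BL/6J 1, C57BL/6J 2, BTBR 2 or BTBR 3 the adjusted p was between 0.0835 and 0.131. With every mouse kept it was lost with normexp (limma adjusted p = 0.962) and no filter on dim probes (0.0697). The authors' matrix values (-0.23, adjusted p = 0.067) and the mean of the gene's probes (-0.33, adjusted p = 0.343) lost it too.

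The other Nrp1 probes lie 108 kb and 143 kb downstream of the clone probe, on RefSeq transcripts, and both had higher means in BTBR. The nearer showed -3.33, -3.16 and -3.38 in BTBR mice, against -3.70, -3.52 and -3.51 in C57BL/6J mice. Its strains did not overlap, in the opposite direction to the clone probe, but the difference did not pass (0.29 ± 0.12 SE, adjusted p = 0.288). The farther showed -3.50, -3.42 and -3.77 in BTBR mice, against -3.84, -3.54 and -4.14 in C57BL/6J mice, which overlapped (0.28 ± 0.18 SE, adjusted p = 0.545). The lower signal in BTBR was thus seen on the clone probe and not on the RefSeq probes of the same gene.

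The sequences show where the probes differ. The last 30 bases of the clone probe contain AATAAA, the usual polyadenylation hexamer, starting at base 49 of the 60 and set in capitals; the RefSeq probes are shown whole and hold no such hexamer.
Nrp1 clone probe A_52_P174942 (chr8:130884009-130884068, mm9, plus strand): aatgaaagtcgcactgtcAATAAAggcttt
Nrp1 A_52_P371237 (chr8:130992273-130992332, mm9, plus strand): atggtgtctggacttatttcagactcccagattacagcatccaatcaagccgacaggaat
Nrp1 A_51_P469285 (chr8:131026650-131026709, mm9, plus strand): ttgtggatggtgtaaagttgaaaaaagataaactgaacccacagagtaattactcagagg

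AATAAA was searched as these letters on the probe strand, and as TTTATT for the other strand. It was in 5 of the 136 guidance probes (3.68%) and in 4.78% of all 41174 probes; TTTATT was in 7.35% and 4.25%. Besides the Nrp1 clone probe it was on probes of Nrp2, Dcc, Epha4 and Sema7a, none of which passed. A match is a run of letters and was not tested as a site of cleavage.

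**Figure D2:**
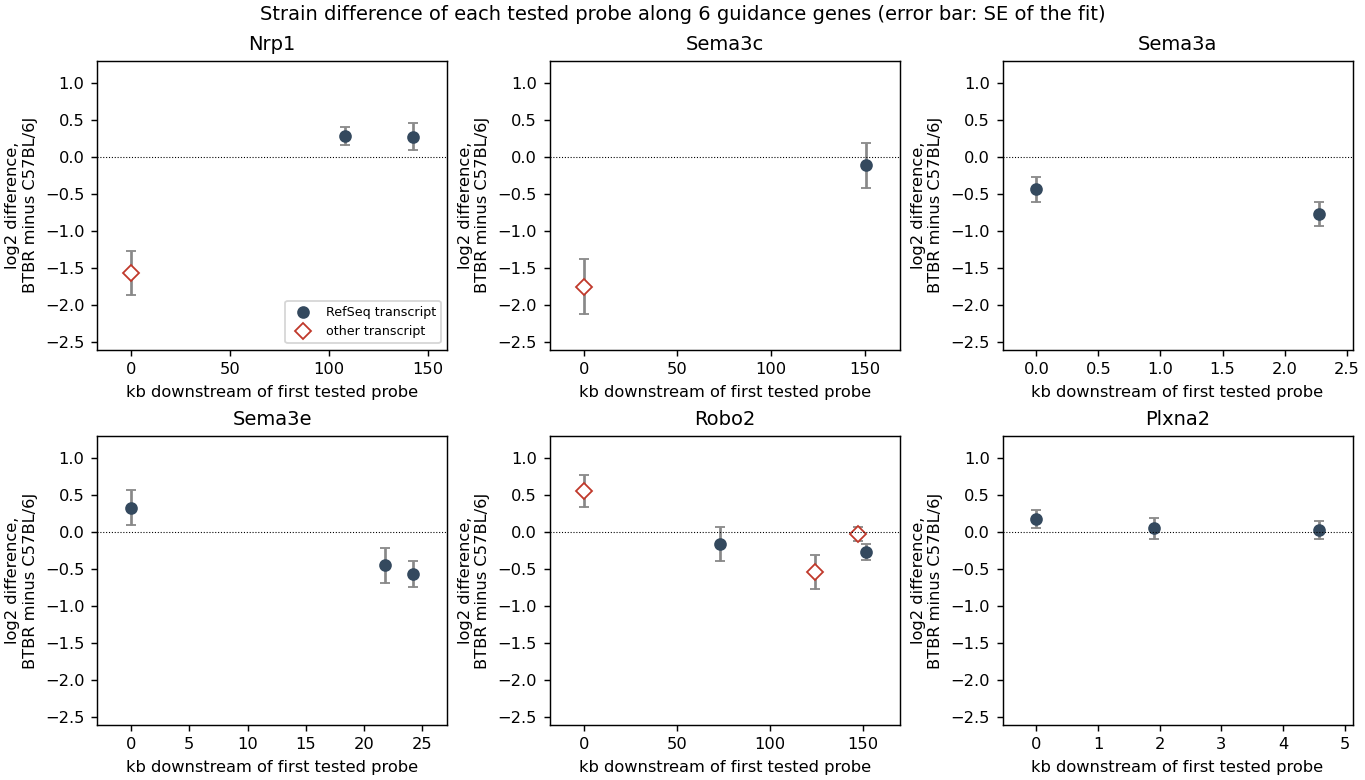
For Nrp1, Sema3c, Sema3a, Sema3e, Robo2 and Plxna2, each tested probe's log2 difference (BTBR minus C57BL/6J, vertical axis, with the SE of the fit) is plotted against its distance in kb downstream of the gene's first tested probe; filled circles are on RefSeq transcripts and open diamonds on others. The first probes of Nrp1 (-1.57) and Sema3c (-1.75) lie far below the later ones, while the 3 Plxna2 probes lie together between 0.04 and 0.18.

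Across the guidance genes, 32 had more than 1 tested probe. In 20 of these all probes had the same sign, and in 23 they differed by less than 0.5 on the log2 scale. They differed by at least 1 in 4 genes, Nrp1 (1.85), Sema3c (1.64), Robo2 (1.10) and Dcc (1.03). Another 40 genes had 1 tested probe, among them Ntn4, Sema3d, Epha8 and Plxnb3, which are 4 of the 6 called genes. Those 4 do not share a direction: Ntn4 and Sema3d were higher in BTBR, and Epha8 and Plxnb3 lower. No second tested probe was at hand for them, and whether a sequence variant under the probe plays a part was not tested.

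Nrp2, the neuropilin that binds Sema3f, did not differ beyond the spread between mice (-0.07 ± 0.48 SE, adjusted p = 0.971). Plexins are the signalling receptors of semaphorins, and of 18 tested plexin probes of 9 genes 1 passed, that of Plxnb3. Plexin-B3 is a receptor for Sema5a and is found in oligodendrocytes of the rodent brain. Plxnb3 levels were 0.45, 0.38 and 0.42 in BTBR mice 1, 2 and 3, against 0.89, 0.92 and 1.19 in C57BL/6J mice.

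The BTBR mice lay close together and below all C57BL/6J mice. Plxnb3 was 1.50-fold lower in BTBR (log2 difference -0.58 ± 0.12 SE, limma adjusted p = 0.0438), with -0.49 within slide 1 (adjusted p = 0.0924) and -0.77 within slide 2. The call held in 8 of 21 alternative settings and was lost with slide as a block (adjusted p = 0.0505) and whichever mouse was left out (adjusted p 0.0703 to 0.166). Oligodendrocyte markers also lay lower: all 8 of 8 had lower means in BTBR, with a median difference of -0.66, 3 past the test, and list scores of -0.28, -0.41 and -0.23 in BTBR mice 1, 2 and 3, against 0.13, 0.51 and 0.28 in C57BL/6J mice. Their part in the Plxnb3 difference was not tested, and in whole tissue fewer cells of a type and less RNA per cell cannot be told apart.

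The remaining plexins did not pass, though Plxna3 did with array weights. Plxna1 and Plxna2, receptors that pair with neuropilins or bind class 6 semaphorins, gave -0.24 and -0.10, and 0.18, 0.05 and 0.04, over their probes. Plxna3 had 0.43 ± 0.12 SE with no overlap between strains (adjusted p = 0.118) and 0.30 on its second probe. The 3 Plxna4 probes gave 0.04, -0.07 and 0.00. Plxnb1, the receptor of Sema4d, had 0.09 on both probes, Plxnb2 -0.07 and 0.15, Plxnc1 0.14 and 0.21, and Plxnd1, the Sema3e receptor, -0.56 ± 0.28 SE (adjusted p = 0.407).

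**Figure D3:**
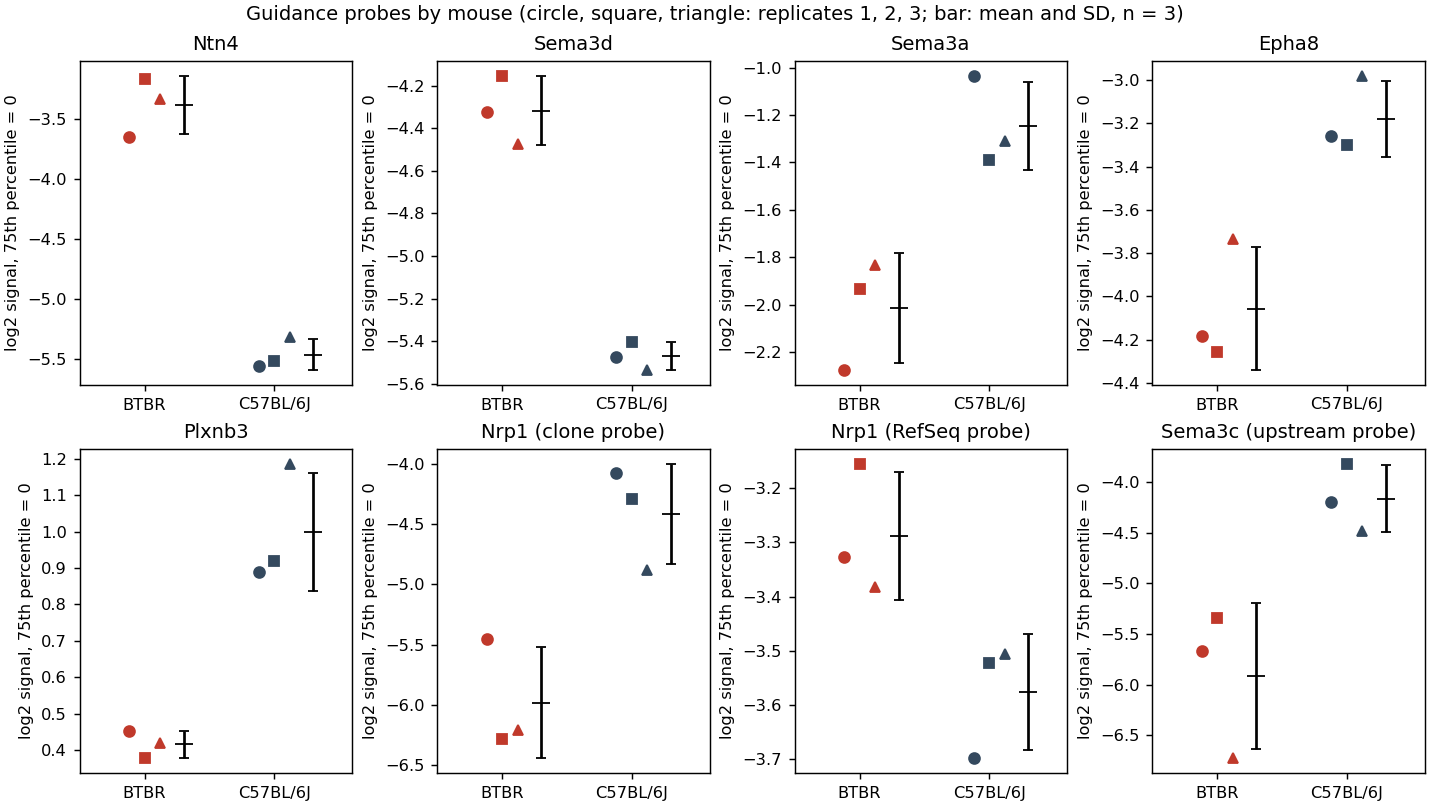
Log2 signal relative to the 75th percentile of the array (vertical axis) is shown for each mouse, BTBR left and C57BL/6J right, with the mean and SD of 3 mice, for the 6 probes past the test, the nearer Nrp1 RefSeq probe and the upstream Sema3c probe. The strains do not overlap in any panel; Ntn4 and Sema3d lie higher in BTBR, and the 2 Nrp1 panels run in opposite directions.

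No Dcc or Unc5 probe passed. Dcc, the attractive netrin receptor needed for callosal crossing in mouse, had differences of -0.41, -0.24, 0.47 and 0.62 over its 4 tested probes, with adjusted p between 0.569 and 0.808. On the probe with the widest range the levels were -4.49, -3.71 and -5.28 in BTBR mice 1, 2 and 3, against -5.96, -5.28 and -4.09 in C57BL/6J mice, so mice of 1 strain differed more than the strain means. Unc5b, a repulsive netrin receptor, had -2.10, -1.81 and -2.06 in BTBR mice, against -1.59, -1.65 and -1.73 in C57BL/6J mice. These did not overlap, and the difference of -0.34 ± 0.12 SE missed the test (adjusted p = 0.221). Unc5a, Unc5c and Unc5d, further receptors of that family, gave between -0.21 and 0.10.

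The Slits, repellents that bind Robo receptors, gave a median of 0.17 over 6 tested probes. Slit3 had the smallest p, with levels of -0.15, -0.36 and -0.12 in BTBR mice 1, 2 and 3, against -0.06, -0.03 and 0.25 in C57BL/6J mice (-0.26 ± 0.13 SE, adjusted p = 0.406), without overlap between strains. Slit2, which guides callosal axons at the midline, had 0.64, 0.45, 0.10 and 0.16 over its 4 tested probes, the first well above background on all BTBR arrays and on 2 of 3 C57BL/6J arrays. Slit1 had 0.19. Neither Slit2 nor Slit1 passed.

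Among the Robos, Robo1 had 0.04 ± 0.25 SE (adjusted p = 0.969). The 5 tested Robo2 probes ran from -0.54 to 0.56. The probe with the smallest p showed -5.10, -4.63 and -5.23 in BTBR mice, against -5.62, -5.80 and -5.22 in C57BL/6J mice, where BTBR 3 and C57BL/6J 3 met (0.56 ± 0.22 SE, adjusted p = 0.268). Robo3, needed for hindbrain axons to cross, had 0.51 and 0.47 on probes whose values spread widely in both strains, and Robo4, an endothelial Robo, -0.16.

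Eph receptors held 1 call. Epha8, a receptor tyrosine kinase for ephrin-A ligands, had levels of -4.18, -4.26 and -3.73 in BTBR mice 1, 2 and 3, against -3.26, -3.30 and -2.98 in C57BL/6J mice. All BTBR values lay below all C57BL/6J values, with mouse 3 the highest in each strain. It was 1.84-fold lower in BTBR (log2 difference -0.88 ± 0.18 SE, limma adjusted p = 0.0418), with -0.94 within slide 1 (adjusted p = 0.0207) and -0.75 within slide 2. The call held in 10 of 21 alternative settings, and was lost without any of the mice but BTBR 3 (adjusted p 0.0994 to 0.17). With all 6 mice it was lost with quantile normalization (limma adjusted p = 0.0835), median scaling (0.0701) and no filter on dim probes (0.0878). Normexp background correction (-0.62, adjusted p = 0.945) and the authors' matrix values (-0.25, adjusted p = 0.109) lost it too.

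Epha3, a receptor for ephrin-A5, had the same direction on all 3 probes without a call. On the probe A_52_P276955 the levels were -2.55, -2.04 and -2.78 in BTBR mice, against -3.66, -3.52 and -2.87 in C57BL/6J mice (0.89 ± 0.27 SE, adjusted p = 0.152). BTBR 3 and C57BL/6J 3 lay close together there. The others gave 0.75 (adjusted p = 0.143; well above background on 1 of 3 C57BL/6J arrays) and 0.84 (adjusted p = 0.299).

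Epha4, which binds both ephrin classes and acts at the midline in mouse, had -0.18 and -0.06 on its probes. Epha1 had the largest spread in C57BL/6J, with levels of -5.25, -5.59 and -5.85 in BTBR mice, against -5.01, -5.37 and -3.35 in C57BL/6J mice (-0.98 ± 0.52 SE, adjusted p = 0.424). The remaining EphA probes, of Epha2, Epha5, Epha6, Epha7 and Epha10, lay between -0.21 and 0.39, and the EphA median was 0.16 over 16 probes.

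In the EphB receptors, 5 of 6 tested probes had a higher mean in BTBR, with a median of 0.22 and no call. Ephb2, a receptor for B-type ephrins at synapses and in the anterior commissure, had 0.07, -0.29 and 0.15 in BTBR mice 1, 2 and 3, against -0.46, -0.46 and -1.53 in C57BL/6J mice. The strains did not overlap, and C57BL/6J 3 was far below the other mice of its strain (0.79 ± 0.31 SE, adjusted p = 0.276); the second Ephb2 probe had 0.26. Ephb1 had -0.19 ± 0.19 SE (adjusted p = 0.713).

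The ephrins gave no call in 10 tested probes, 6 of ephrin-As and 4 of ephrin-Bs. Efna4 levels were -4.78, -4.83 and -5.48 in BTBR mice, against -4.31, -4.82 and -4.90 in C57BL/6J mice (-0.35 ± 0.25 SE, adjusted p = 0.583), and the strains overlapped. Efnb3, a midline ephrin-B that repels corticospinal axons and takes part in callosal crossing in mouse, had 2.58, 2.96 and 2.34 in BTBR mice, against 2.81, 3.35 and 3.76 in C57BL/6J mice. These overlapped through BTBR 2 and C57BL/6J 1 (-0.68 ± 0.28 SE, adjusted p = 0.286). Of the genes known for commissure formation in mouse that were followed here, Dcc, Ntn1, Slit2, Robo1, Sema3c, Epha4, Efnb3 and Ephb1 had no called probe and Nrp1 had its clone probe alone. Draxin, a secreted repellent outside these families that is needed for the forebrain commissures, had 0.04 ± 0.13 SE (adjusted p = 0.924).

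**Figure D4:**
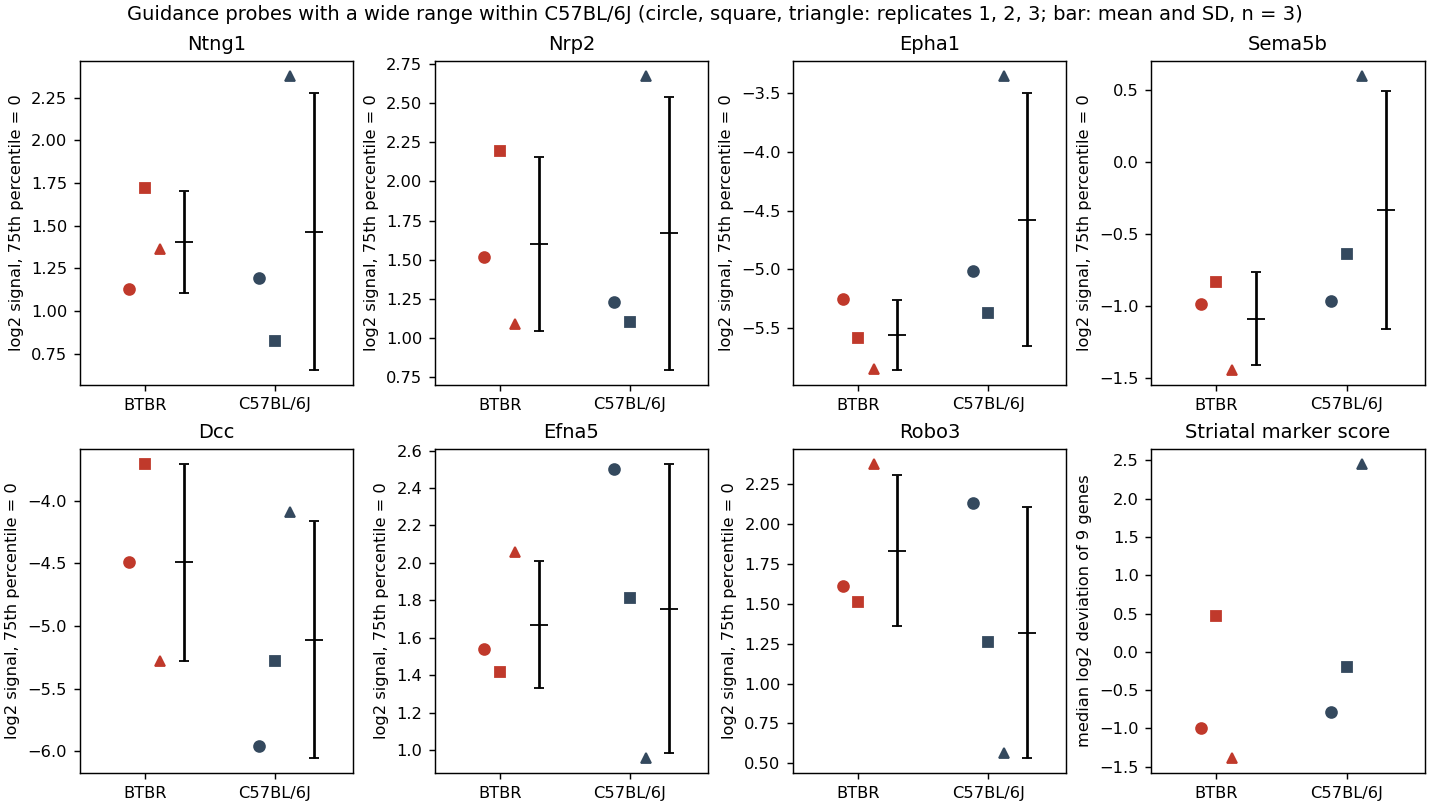
Log2 signal relative to the 75th percentile (vertical axis) by mouse, BTBR left and C57BL/6J right, with mean and SD of 3 mice, for 7 guidance probes with a wide range in C57BL/6J; the last panel is the striatal marker score, in log2. C57BL/6J 3 (triangle) is the highest of the 6 mice for Ntng1, Nrp2, Epha1 and Sema5b, as it is for the score (2.46), and the lowest for Efna5 and Robo3. As the probes were chosen for this range, a C57BL/6J mouse in the highest or lowest place is partly a result of the choice.

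On some guidance probes the C57BL/6J mice differed widely among themselves. C57BL/6J 3 was the highest or the lowest of the 6 mice in 61 of 120 guidance probes (50.8%), against 39.6% of all tested probes. Its Ntng1 level on the probe with 10 spots was 2.38, against 1.20 and 0.82 in the other C57BL/6J mice, and its Nrp2 level was 2.67, against 1.23 and 1.10. Among the BTBR mice, BTBR 2 was the highest for Ntng1 (1.72) and Nrp2 (2.19) and BTBR 1 for Epha1 (-5.25). Efna5, the ephrin-A that Epha3 binds, ran the other way, at 1.54, 1.42 and 2.06 in BTBR mice 1, 2 and 3, against 2.50, 1.81 and 0.96 in C57BL/6J mice. None of these probes passed the strain test, and the part of tissue other than cortex in them was not tested. Without C57BL/6J 3 and BTBR 2, 3 of the 120 guidance probes passed (2.5%), against 3.36% of all tested probes.

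A further 16 guidance probes were too dim to test. Of these, 10 stayed below that detection limit on all 6 arrays: 2 each of Sema3a and Slit2 and 1 each of Sema6a, Sema4d, Unc5c, Robo2, Ephb4 and Unc5cl. The first 7 of these genes also had other, tested probes, so only Unc5cl among them was without a tested probe. The others, of Ntn1, Ntng1, Ntng2, Robo1, Sema3e and Plxna4os2, were well above background on 1 or 2 arrays. Of the 106 probes on RefSeq transcripts 103 were tested, against 17 of 30 on other transcripts.

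Of 82 other genes of the pathway, covering adhesion receptors, adaptors, cytoskeletal effectors and further ligands, 168 probes were tested. Of these probes 8, of 7 genes, passed (4.76%), against 5.44% of all tested probes, so the share was close to that of the whole array. Each of the 8 was higher in BTBR, while 2.19% of all tested probes were called higher and 3.25% lower. The list's median difference was 0.08. Ablim1, an actin-binding LIM protein, had levels of -0.55, -0.52 and -0.48 in BTBR mice 1, 2 and 3, against -4.06, -4.04 and -4.60 in C57BL/6J mice, a 13.2-fold higher value in BTBR (log2 difference 3.72 ± 0.17 SE, limma adjusted p = 0.000128). The strains were far apart on that probe, while the 4 other Ablim1 probes gave between 0.10 and 0.84 and did not pass.

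Adam10, the protease that sheds ephrins and other surface proteins, was 1.71-fold higher on its 1 tested probe (0.77 ± 0.10 SE, adjusted p = 0.00906). Mical2, a monooxygenase that acts on actin, was 2.03-fold higher (adjusted p = 0.0107), with 0.37 on its other probe. Cxcr4, the CXCL12 receptor, was 1.86-fold higher on a probe (adjusted p = 0.0115) whose companion gave -0.32. This dim Cxcr4 probe was not well above background on all 6 arrays, turned to -0.21 with normexp background correction, and passed in 12 of 20 alternative settings. Cap1, an actin regulator, was 2.81-fold higher on its 1 tested probe (adjusted p = 0.0318). Both probes of Chl1, a cell adhesion molecule that works with neuropilin-1, passed (0.58 and 0.66, adjusted p = 0.0378 and 0.0428), and Neo1, a Dcc relative that binds netrins and RGM proteins, passed on 1 of 4 probes (0.54, adjusted p = 0.0452). Both Chl1 calls were lost whichever mouse was left out, and the Neo1 call was lost with slide as a block and held in 1 of the 6 cases with a mouse left out. Cap1 also held in 1 of these 6 cases. These calls too moved with the processing, and with normexp background correction none of the 8 passed, 12 of the list's probes being at an unadjusted p under 0.05.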

How the data were processed

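RNA of the prefrontal cortex of 6 mice was measured on Agilent arrays of 60-base probes, 1 array per mouse, from 0.5 µg RNA with an integrity number of 9 (per the labels). The scanner output deposited for each array holds intensity values on a linear scale, already background-subtracted. Its headers name Feature Extraction 10.7.3.1, whereas version 9.1 of Agilent Feature Extraction stands in the submitters' processing notes. The authors' deposited matrix holds log2 values whose scaling and centring are not given in the sources used here (column medians 8.82 to 8.83); it served as an alternative. Its strain differences ran the same way as those of the scanner values, with a correlation of 0.792 and a slope of 0.374 over tested probes.

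For each array, the 75th percentile over 41174 non-control probes was subtracted from log2 of the processed signal. Outlier-flagged spots, 54 to 107 on an array, were dropped if the probe had another spot, and replicate spots were averaged. Probes well above background on at least 3 of 6 arrays (30011) were fitted with limma 3.58.1 in R 4.3.3 (lmFit, eBayes, BTBR minus C57BL/6J, no block); the data.table package was version 1.17.8. Adjusted p-values are Benjamini-Hochberg over all tested probes, with a threshold of 0.05. Slide 2 holds 1 mouse of each strain and so gives a difference without a test. The fit was also run on simulated data with independent normal noise and no slide, tissue or array effect. That run cannot show how reliable the calls here are.

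The members and gene lists were chosen with earlier results of these data known. Named genes are those with a called probe, the smallest p in each family without a call, genes with probes below the detection limit, 10 genes known for commissure formation, and called genes of the other pathway list; further members are described by their values. Positions are mm9, per the file headers. Symbols were checked through RefSeq accessions in a gene table of GRCm38.p6, from which no coordinate was taken: 106 of 136 probes matched, all to the name in the files. Alternatives covered background correction, scaling, the dim-probe filter, several probes per gene, flagged spots, the authors' values, prior, array weights, slide and replicate blocks, and leaving out mice. Normexp background correction added an offset of 50 to the signal, while the 75th percentile of the processed signal was 859 to 1607 per array. The part of this offset in the calls lost with normexp, many of them on dim probes, was not tested.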

Additional observations from a re-analysis of the deposited data

How the results depend on the processing

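The guidance probes gave 6 calls. Normexp background correction gave 0 by limma, with 4 at an unadjusted p under 0.05, no filter on dim probes 2, leaving out both C57BL/6J 3 and BTBR 2 gave 3, and array weights, whose estimation stopped before its tolerance, gave 17; leaving out 1 mouse gave 2 to 4. Over all probes, 1632 calls became 170 with normexp, 1083 with the brightest probe per gene (5.54% of 19545 tested, against 5.44% of 30011), 922 with a replicate block, 1008 without both mice and 3928 with array weights; leaving out 1 mouse gave 858 to 1472. For the other pathway genes, 8 calls became 0 with normexp (12 at an unadjusted p under 0.05), 4 with no filter, 4 with the mean of the probes per gene (4.88% of 82 tested, against 4.76% of 168), 3 with a replicate block, 3 without both mice and 22 with array weights; leaving out 1 mouse gave 1 to 7. With normexp the Cxcr4 call was lost and its difference changed sign (-0.21). Normexp also moved the median difference of all probes to -0.09, against 0.04. The cause of these shifts was not tested. Where mice were left out, having fewer mice and losing those particular mice cannot be told apart.

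Mice with the same replicate number did not deviate together (correlations 0.03, -0.17 and -0.08), so the numbers were not taken as pairs; with the replicate block 5 guidance probes passed, losing Plxnb3 and Sema3a and gaining Sema3c. Slide as a block gave the same 5 genes. Within slide 1, Epha3, Epha5, Slit2 and Sema3c had probes that passed. Array weights kept the 6 called genes and added Epha3, Ntn3, Plxna3, Robo2, Sema3c, Sema3g, Sema5a, Sema6c and Unc5b. That setting called 14.2% of the guidance probes, against 13.1% of all tested probes. Medians of single families moved across 0 under some alternatives, for plexins between -0.06 and 0.11. Dim probes such as the Nrp1 clone probe and the upstream Sema3c probe are limited by signal over background.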
